A study of Rattus norvegicus with 21 samples.

Results

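Transcripts of 7 genes of the inhibitory synapse were followed in single hippocampal neurons: the GABA-A receptor subunits Gabra2, Gabra5, Gabrb1 and Gabrb2, the GABA-B receptor subunits Gabbr1 and Gabbr2, and gephyrin (Gphn). The genes were taken by symbol from the authors' normalized expression table, keeping for each symbol the row with the highest mean, and all 7 were found among 16245 symbols. GABA-A receptors are chloride channels built from subunits of several families, typically alpha, beta and gamma, and the alpha and beta subunits form the site where GABA binds. GABA-B receptors are G-protein-coupled receptors that reach the cell surface as a pair of Gabbr1, which binds GABA, and Gabbr2, which couples to the G protein. Gephyrin is the scaffold that holds many GABA-A receptors and glycine receptors at inhibitory synapses, and it also catalyses the last steps of molybdenum cofactor synthesis.

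The series holds 21 neurons of Wistar rats, each recorded with a patch electrode and then aspirated for SMART-Seq v4 amplification and paired-end sequencing. The rats carried a Venus transgene for the vesicular GABA transporter (VGAT), which marks GABAergic neurons, and the hippocampi came from embryonic day 18 (E18) embryos and were cultured for 17 days in vitro. The 5 pyramidal neurons and 6 of the GABAergic neurons came from cultures that kept their glial cells and received no antimitotic agent. A further 5 GABAergic neurons came from purified cultures that also received oligodendrocyte conditioned medium (OCM), added from day 3 in vitro and taken from oligodendrocyte cultures of postnatal day 2 Wistar cortices. The last 5 GABAergic neurons came from purified cultures without OCM. Both kinds of purified culture received FdU and U at 5 µM from 24 h after dissection, for 36 h. The action of these agents and the absence of glia cannot be told apart. From which animal or dish a neuron came is not stated in the labels. Each group thus counts as 1 sample, no difference was tested, and an SD or range gives the variation among cells. Sample titles begin with S, P or ech, with no stated meaning. All OCM-treated cells carry S, as do 4 of 5 purified cells, 1 of 6 glia-cultured GABAergic cells and 2 of 5 pyramidal cells, so that letter and group partly coincide.

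The values are read counts that the authors normalized with DESeq2, called normalized counts here. Recovered reads ran from 1817671 to 25160911 per cell, and intervals cover counting error only. Gad2 and Slc32a1, which mark GABAergic neurons, were above 0 in 16 of 16 cells labelled GABAergic, and Gad1 in 15 of 16. Slc17a7, which marks glutamatergic neurons, was above 0 in 4 of 5 pyramidal cells and in 0 of 16 GABAergic cells. Pyramidal cells had no reads of Gad1 or Slc32a1, but 2 had Gad2, at 924 and 714. Pyramidal cells 3 and 4 also carried oligodendrocyte transcripts, with the myelin gene Mbp at 278859 and 95386, and sums over 9 oligodendrocyte markers of 322190 and 103570, whereas these sums reached at most 1352 in GABAergic cells. Pyramidal cell 3 had no Slc17a7 reads and a summed level of 23414 over 7 microglial markers. Its sum over 7 astrocyte markers was 64091, with Apoe at 59681, and its level of Vim, a vascular and fibroblast marker here, was 23306. The median difference over the 7 genes, the number at least 4-fold lower, and the Gabbr1 and Gphn differences are therefore also given without these 2 cells. Counts of pyramidal cells with a transcript or combination include them. After thinning every cell to 1817671 reads, 2126 to 4384 symbols were above 0 in pyramidal cells, 3313 to 4979 in OCM-treated cells, 2219 to 3369 in purified cells and 3222 to 7271 in glia-cultured GABAergic cells.

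Gphn, the gephyrin gene (chromosome 6, 101327874 to 101859169 in rn6), was the member with the sharpest contrast between GABAergic groups. It had normalized counts of 43.0, 698, 117, 18.4 and 2561 in the 5 OCM-treated cells and 0 reads in each of the 5 purified cells. The 6 glia-cultured GABAergic cells ran from 53.3 to 4966, with a median of 2903. In pyramidal cells Gphn was at 0, 11.8, 0, 347 and 14948. Gephyrin transcripts were thus found in 5 of 5 OCM-treated cells (exact Clopper-Pearson 95% interval 47.8 to 100%), in 0 of 5 purified cells (0 to 52.2%) and in 6 of 6 glia-cultured GABAergic cells (54.1 to 100%). The purified cells overlapped neither of the other GABAergic groups.

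Against a floor of 3 reads over the purified group, the mean of 687 (SD 1084, 5 cells) in OCM-treated cells was at least 418-fold higher than in purified cells, or at least 133-fold without OCM-treated cell 5. By the same floor, purified cells were at least 1613-fold lower than the mean of 2654 (SD 1970, 6 cells) in glia-cultured cells. These bounds set arithmetic means against the floor and cover the counting of reads only. As differences of mean log2(normalized count + 1), the contrasts were 7.48 for OCM-treated minus purified and -10.47 for purified minus glia-cultured cells. The level with OCM also lay below that with glia in the group means, but single cells overlapped. Thinning to one read total left these numbers of cells as they were. At a threshold of 50 normalized counts the OCM-treated cells with Gphn numbered 3 of 5.

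Few genes shared this pattern of detection, which was taken from Gphn after its values were seen, so the count is a description. Of 939 symbols above 0 in every OCM-treated and every glia-cultured GABAergic cell, 493 (52.5%) were above 0 in every purified cell as well. Only 3 (0.319%) were at 0 in every purified cell, and these were Gphn, Dlg3 and Tmed7, the last 2 named after their values were seen. Purified cells had fewer genes in general: they held 63.2 to 79.9% of the 1444 symbols found in every glia-cultured GABAergic cell, whereas OCM-treated cells held 83.7 to 95.8%. Purified cell 2, with the most symbols of its group after thinning (3369), had no Gphn reads. Glia-cultured cell 2, with the fewest of its group (3222), had a Gphn value of 4966. Pyramidal cell 5, with the fewest symbols of all cells (2126), had the highest Gphn value. These cells are extremes of gene detection. Other cells differed: pyramidal cells 1 (2440 symbols) and 3 (2191) and purified cell 4 (2219) had few symbols and no Gphn reads. Glia-cultured cell 5, with the most symbols (7271), had Gphn at 1015. Over the 21 cells, Spearman's rho of Gphn was 0.42 with the number of genes per cell and 0.52 with reads per cell, given as descriptions. The part of the lower detection of purified cells in the absence of Gphn was not tested. Gphn shares its interval with 2 other rows of the table, both without a symbol and at 0 in every cell.

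**Figure D1:**
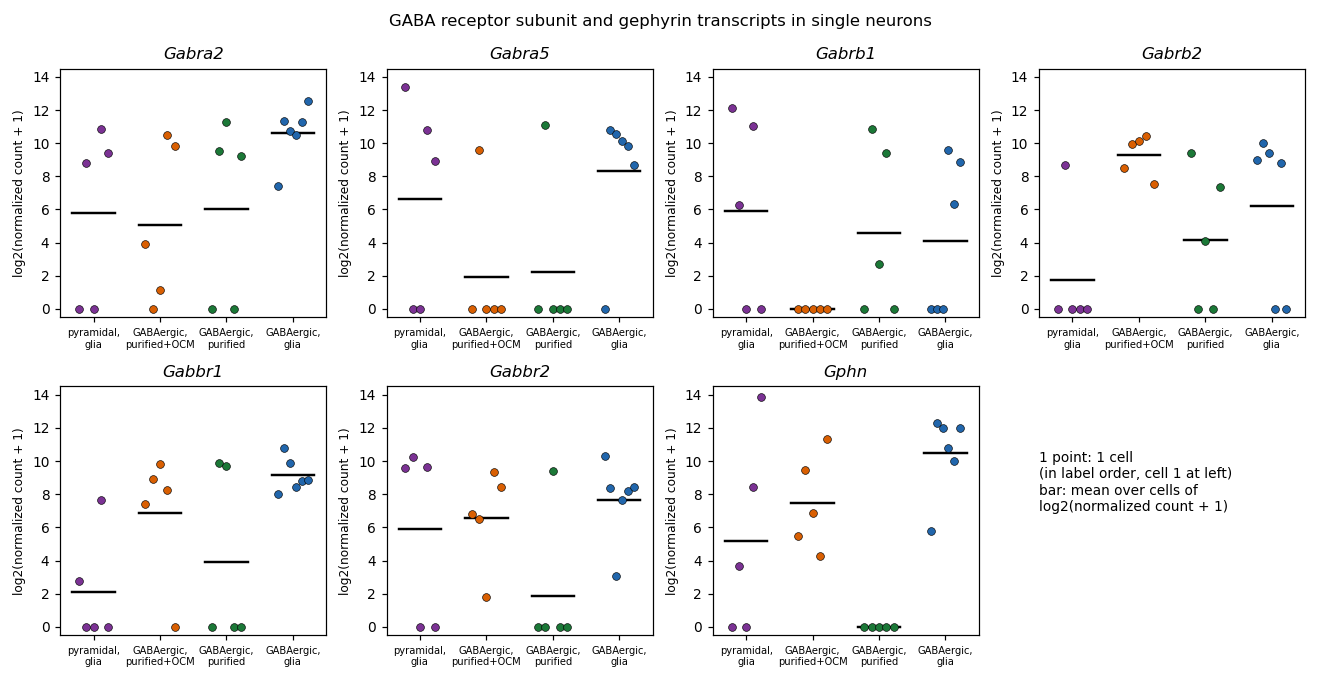
Normalized counts of the 7 members per cell, on a log2(normalized count + 1) axis. Each point is 1 cell, and the bar is the mean over the cells of a group. Gphn is at 0 in the 5 purified cells and above 0 in the OCM-treated and glia-cultured GABAergic cells, and Gabrb1 is at 0 in the 5 OCM-treated cells.

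The Gphn promoter is shown because this gene gave the contrast just described. The window runs from 250 bases before to 50 bases after the gene's start in RefSeq on assembly GRCr8, chr6:102687403-102687702, plus strand. Capitals mark the GC box (GGGCGG or its reverse complement).
Gphn: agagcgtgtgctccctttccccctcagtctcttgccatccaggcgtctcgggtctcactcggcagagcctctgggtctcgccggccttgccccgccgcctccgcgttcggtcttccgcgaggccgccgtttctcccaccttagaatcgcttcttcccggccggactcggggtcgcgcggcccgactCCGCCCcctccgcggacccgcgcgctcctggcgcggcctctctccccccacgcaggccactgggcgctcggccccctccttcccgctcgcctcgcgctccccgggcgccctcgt
Promoter windows were found for 6 of the 7 members. The window of Gphn held 41 CpG dinucleotides and 74.0% G and C, against medians of 7 and 51.7% over 33469 promoters of the same length. A GC box was in 4 of the 6 member windows, those of Gphn, Gabbr1, Gabbr2 and Gabra5, and in 33.1% of all promoters on either strand. Neither a TATA box (TATAAA, 14.2% of promoters) nor a CRE (TGACGTCA, 1.83%) was in any of the 6 windows. The motif CCAAT (37.5% of promoters) was in that of Gabrb1 alone.

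The GABA-B receptor pair showed detection that was complete in glia-cultured GABAergic cells and sparse in purified cells. Gabbr1, the GABA-binding subunit (chromosome 20, 1955344 to 1984802), was at 170, 484, 896, 303 and 0 in OCM-treated cells and at 0, 929, 822, 0 and 0 in purified cells. The 6 glia-cultured GABAergic cells had 260 to 1755, with a median of 452. The 2 purified cells that had the transcript lay within the glia-cultured range, and the other 3 had no reads. In pyramidal cells Gabbr1 was at 5.91, 0, 0, 201 and 0. All 5 values lay below the lowest glia-cultured GABAergic cell, and the means were 41.3 (SD 89.2, 5 cells) and 705 (SD 569, 6 cells).

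Gabbr2, the subunit that couples to the G protein (chromosome 5, 62276100 to 62621737), was at 110, 89.5, 2.44, 645 and 338 in OCM-treated cells and at 0, 0, 680, 0 and 0 in purified cells. It ran from 7.46 to 1248 with a median of 312 in glia-cultured GABAergic cells. Every OCM-treated cell thus had Gabbr2 reads, while 1 of 5 purified cells did, and that cell lay above the highest OCM-treated one. Pyramidal cells had 754, 1227, 0, 792 and 0. Their mean of 555 (SD 539, 5 cells) was within the spread of the 404 (SD 432, 6 cells) of glia-cultured GABAergic cells, unlike their low Gabbr1.

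Both subunits of the pair were above 0 together in 2 of 5 pyramidal cells, 4 of 5 OCM-treated cells, 1 of 5 purified cells and 6 of 6 glia-cultured GABAergic cells. The exact intervals of these shares are 5.27 to 85.3%, 28.4 to 99.5%, 0.505 to 71.6% and 54.1 to 100%. Of the 8 cells without the full pair, 3 had 1 of the subunits: pyramidal cell 2 and OCM-treated cell 5 had Gabbr2 without Gabbr1, and purified cell 2 had Gabbr1 without Gabbr2. The remaining cells had neither.

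Gabra2 and Gabra5 encode alpha subunits that differ in where receptors sit: alpha2 is common at synapses and on the axon initial segment, and alpha5 is abundant in the hippocampus, largely outside synapses. Gabra2 (chromosome 14, 39662441 to 39798928) was at 13.9, 0, 1.22, 1438 and 893 in OCM-treated cells and at 0, 741, 2492, 0 and 595 in purified cells. Glia-cultured GABAergic cells ran from 166 to 5872 with a median of 2105. Both purified groups thus mixed cells within the glia-cultured range with cells at or near 0. At a threshold of 50 normalized counts, 2 of 5 OCM-treated cells had Gabra2, compared with 4 of 5 above 0 (3 of 5 after thinning). In pyramidal cells Gabra2 was at 0, 442, 0, 1852 and 678.

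Gabra5 (chromosome 1, 112833989 to 112946760) was above 0 in 1 of 5 OCM-treated cells, cell 2 at 784, and in 1 of 5 purified cells, cell 2 at 2216. It was above 0 in 5 of 6 glia-cultured GABAergic cells, with values from 411 to 1765 where detected. Its means were 157 (SD 351, 5 cells) in OCM-treated cells, 443 (SD 991, 5 cells) in purified cells and 951 (SD 659, 6 cells) in glia-cultured cells. Pyramidal cells had 10586, 0, 0, 1785 and 492, so that the highest Gabra5 value of the series was in a pyramidal cell. The 2 alpha members were found together in 5 of 6 glia-cultured GABAergic cells, in 1 of 5 purified cells and in 0 of 5 OCM-treated cells. In OCM-treated cells, 4 had Gabra2 alone and 1 had Gabra5 alone.

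Gabrb1 and Gabrb2 encode beta subunits, which complete the GABA-binding interface. Gabrb1 (chromosome 14, 38643398 to 39112598) had 0 reads in each of the 5 OCM-treated cells. It was at 0, 1840, 5.48, 678 and 0 in purified cells and above 0 in 3 of 6 glia-cultured GABAergic cells, at 776, 78.4 and 459. OCM-treated cells were at least 542-fold lower than the mean of 505 (SD 802, 5 cells) in purified cells, and at least 235-fold lower than the mean of 219 (SD 326, 6 cells) in glia-cultured cells, by the floor of 3 reads. The first bound was 184-fold without purified cell 2, and the second was 115-fold without glia-cultured cell 4. As for Gphn, such bounds cover the counting of reads only. The OCM-treated minus purified difference of mean log2(normalized count + 1) was -4.59. The absence is not a separation of groups, since 2 purified and 3 glia-cultured cells were also at 0. Among 118 symbols above 0 in 3 purified and 3 glia-cultured GABAergic cells, 10 (8.47%) were at 0 in every OCM-treated cell. That pattern was taken from Gabrb1 after its values were seen. Pyramidal cells had Gabrb1 at 4406, 76.7, 0, 2131 and 0.

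Gabrb2 has 2 rows in the table. The row kept for its higher mean covers only 771 bases (chromosome 10, 28192302 to 28193072) and lies past the end of the other row, which covers 27975277 to 28187867. No source used here says whether the short interval belongs to the same transcripts. In the short interval, OCM-treated cells had 362, 986, 1098, 1386 and 183, and purified cells had 672, 0, 16.4, 0 and 166. Glia-cultured GABAergic cells ran from 0 to 1045 with a median of 480, and 4 of 6 were above 0. In the long interval 1 of 5 OCM-treated cells was above 0, at 876, together with 2 of 5 purified cells and 3 of 6 glia-cultured cells. The higher level of Gabrb2 with OCM rests on the short interval: the OCM minus purified difference of mean log2 values was 5.12 there and -1.58 in the long one. Of the pyramidal cells, cell 2 alone had Gabrb2, at 413 in the short and 1056 in the long interval.

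Whether the 2 beta members were found in the same cells depended on the row of Gabrb2. With the short interval, the GABAergic cells each had at least 1 of them: 10 of 16 had Gabrb2 alone, 4 had Gabrb1 alone and 2 had both. Over all 21 cells 3 had both and 2 pyramidal cells had neither. In the cells with both, the lower value was 76.7 in pyramidal cell 2, 5.48 in purified cell 3 and 78.4 in glia-cultured cell 5. With the long interval, chosen after seeing the data, 4 of the 7 cells that had Gabrb2 also had Gabrb1, 5 cells had Gabrb1 alone and 9 had neither. Across the 21 cells, Spearman's rho between the 2 genes was -0.65 with the short interval and 0.0047 with the long one. As descriptions over cells of 4 groups and different depths, these values carry no test.

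**Figure D2:**
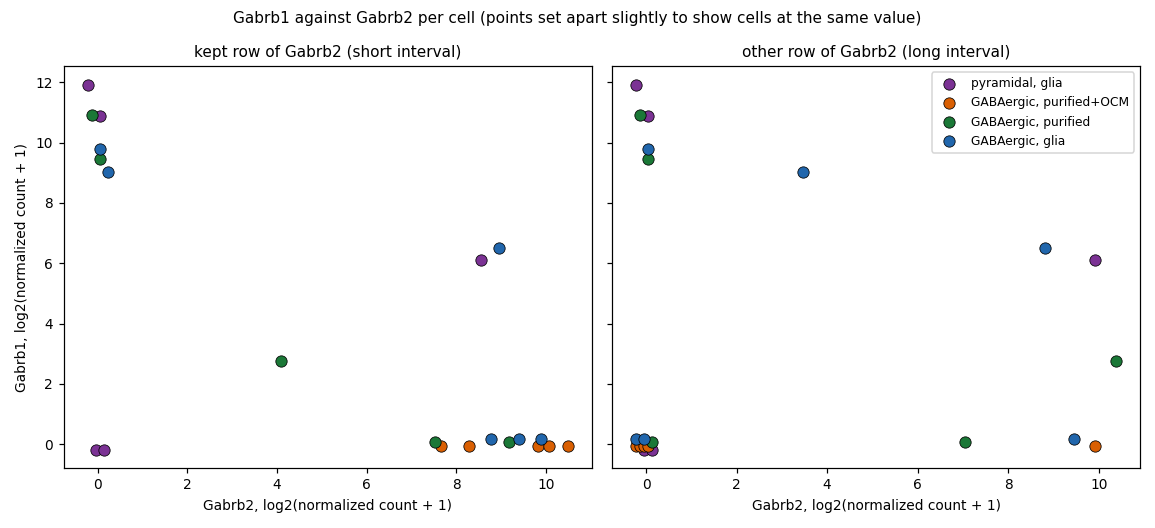
Gabrb1 against Gabrb2 in each of the 21 cells, on log2(normalized count + 1) axes, with Gabrb2 from the kept row at left and from the other row at right. With the kept row 3 cells lie away from both axes, and the 5 OCM-treated cells lie along the Gabrb2 axis with Gabrb1 at 0. With the other row 4 cells lie away from both axes.

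The promoters of the 2 beta genes are shown because these genes were found in mostly different cells when Gabrb2 was read from its short interval, though not from its long one. They come from RefSeq on GRCr8, chr14:36902844-36903143 (minus strand) for Gabrb1 and chr10:27439543-27439842 (plus strand) for Gabrb2. Capitals mark TGCGCATGCGC, the longest run of bases that the 2 windows share.
Gabrb1: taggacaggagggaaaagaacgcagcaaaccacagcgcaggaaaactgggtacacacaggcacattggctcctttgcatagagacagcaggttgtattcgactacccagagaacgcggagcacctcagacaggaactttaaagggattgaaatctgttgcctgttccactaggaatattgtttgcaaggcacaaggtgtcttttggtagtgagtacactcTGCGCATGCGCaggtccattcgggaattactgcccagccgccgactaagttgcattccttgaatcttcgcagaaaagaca
Gabrb2: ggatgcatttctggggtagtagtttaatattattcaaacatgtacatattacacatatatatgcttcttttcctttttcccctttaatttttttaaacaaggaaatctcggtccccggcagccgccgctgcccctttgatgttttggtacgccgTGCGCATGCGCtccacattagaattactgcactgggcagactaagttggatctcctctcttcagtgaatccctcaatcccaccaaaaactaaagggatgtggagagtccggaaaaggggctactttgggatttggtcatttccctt
This run is 11 bases long and holds the palindromic motif bound by NRF1, a factor of many housekeeping and some neuronal promoters. It was found after looking at the 2 windows, and in none of the other 4 member windows. Searched on both strands, it was in 200 of 33469 promoters (0.598%). It began 30 bases before the gene's start in Gabrb1 and 96 bases before it in Gabrb2. The 2 windows had 11 and 9 CpG dinucleotides, whereas those of Gphn, Gabbr1, Gabbr2 and Gabra5 had 32 to 47. A match of letters is a description and says nothing of whether the factor was bound.

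Read cell by cell, with Gabrb2 from its short interval, the members formed 15 distinct combinations among 21 neurons. The most frequent, Gabra2 with Gabrb2, Gabbr1, Gabbr2 and Gphn, was found in OCM-treated cells 1, 3 and 4 and in glia-cultured GABAergic cell 1. The next, Gabra2 with Gabra5, Gabrb1, both GABA-B subunits and Gphn, was found in glia-cultured GABAergic cells 4 and 6 and in pyramidal cell 4. Glia-cultured GABAergic cell 5 had all 7 members, and pyramidal cell 3 had none. Purified cells 1 and 4 had a single member each, Gabrb2 in cell 1 and Gabrb1 in cell 4. The number of members above 0 was 0 to 6 in pyramidal cells, 4 or 5 in OCM-treated cells, 1 to 5 in purified cells and 5 to 7 in glia-cultured GABAergic cells.

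An alpha and a beta member were above 0 together in 3 of 5 pyramidal cells (exact interval 14.7 to 94.7%), 5 of 5 OCM-treated cells (47.8 to 100%), 3 of 5 purified cells (14.7 to 94.7%) and 6 of 6 glia-cultured GABAergic cells (54.1 to 100%). With Gabrb2 from its long interval these numbers were 3 of 5, 1 of 5, 2 of 5 and 4 of 6, so that the 5 of 5 OCM-treated cells rest on the short interval. In purified cells 1 and 4 no alpha member was found. Of the pyramidal cells without the combination, cell 3 had no member and cell 5 had both alpha members and neither beta member. Gphn was found together with an alpha member in 3 of 5 pyramidal, 5 of 5 OCM-treated, 0 of 5 purified and 6 of 6 glia-cultured GABAergic cells.

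**Figure D3:**
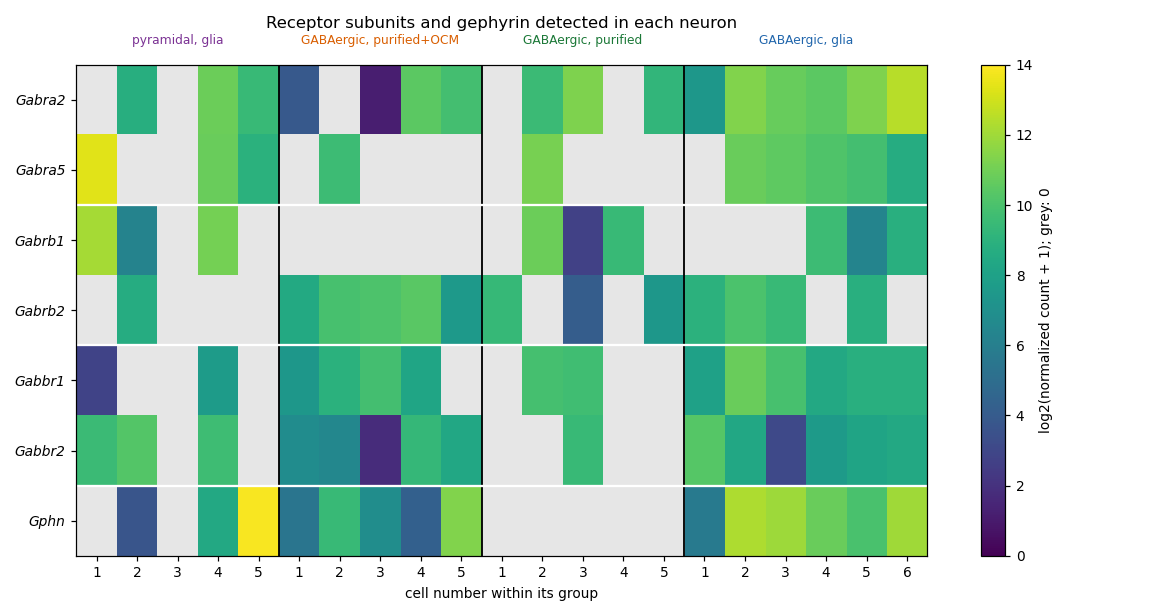
The 7 members (rows) in each of the 21 cells (columns, by group and cell number), coloured by log2(normalized count + 1), with grey for 0. The glia-cultured GABAergic columns are the most filled, with 5 to 7 members each, Gphn is grey throughout the purified cells and Gabrb1 throughout the OCM-treated cells.

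Differences between groups were then set beside those of all genes. Each is a difference of group means of log2(normalized count + 1), so it largely follows in how many cells a gene was above 0. The background is all symbols above 0 in at least 3 cells of the 2 groups, and a difference of 2 or more is called at least 4-fold. The members were chosen with results of these data known, so no test is attached to their counts.

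In pyramidal against GABAergic cells, both with glia, 4 of the 7 members were at least 4-fold lower, as were 50.6% of 6571 symbols. That share is near the background. The median of the members was -4.47, and that of all symbols was -2.05. With the median over cells in place of the mean they were -2.22 and -2.27, so that the members lay at the background. Gabbr1 had the lowest difference, -7.05, and 4.63% of all symbols lay lower. Next came Gphn at -5.27, Gabra2 at -4.82 and, in its short interval, Gabrb2 at -4.47. With Gabrb2 from its long interval 3 members were at least 4-fold lower, beside 50.6% of symbols. The medians were then -1.78 for the members and -2.05 for all symbols. Gabrb1 was higher in pyramidal cells by 1.76, with means of 1323 (SD 1950, 5 cells) and 219 (SD 326, 6 cells), and by 0.21 without pyramidal cell 1. Gabra5 was at -1.71, with -3.40 without pyramidal cell 1 and -0.053 without cell 2, and Gabbr2 was at -1.78, with -2.87 without pyramidal cell 2 and -0.31 without cell 3. Gabbr1 was also the 1 member whose groups did not overlap, among 1.84% of symbols with every pyramidal cell lower. For Gphn the ratio of group means turns the direction, to 0.21 on the log2 scale, because pyramidal cell 5 alone was at 14948. Without pyramidal cells 3 and 4 the members' median was -3.31 and that of all symbols -2.62. Of the members, 4 were at least 4-fold lower there, beside 55.9% of symbols. Gabbr1 was then at -8.21 and Gphn at -4.62.

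In purified against glia-cultured GABAergic cells, 6 of the 7 members were at least 4-fold lower, beside 51.7% of 6302 symbols. That count takes Gabrb2 from its short interval, and with the long interval it was 5. Gphn stood at -10.47, a value that 0.0793% of symbols lay below, and it passed the filter through the glia-cultured cells only, where it was high. Gabra5 followed at -6.11, Gabbr2 at -5.79, Gabbr1 at -5.23 and Gabra2 at -4.62. In the short interval Gabrb2 was at -2.03, close to the all-symbol median of -2.13. It was under 4-fold without purified cell 2 or 4 (-0.99 each) or without glia-cultured cell 1, 2, 3 or 5 (-1.51 to -1.27). Gabrb1 was at 0.46, and at -1.10 without purified cell 2. The members' median was -5.23. With the ratio of group means it was -1.39, beside -0.47 for all symbols. By that measure 1 member, Gphn, was at least 4-fold lower, beside 28.2% of symbols. Gphn was the 1 member without overlap, among 1.51% of symbols.

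In OCM-treated against purified cells, 4 of the 7 members were at least 4-fold higher, beside 39.3% of 5143 symbols. Gphn was at 7.48, above 98.3% of symbols, and passed the filter through the OCM-treated cells only. Gabrb2 was at 5.12, Gabbr2 at 4.68 and Gabbr1 at 2.97. Gabbr1 was at 1.99 without purified cell 1, 4 or 5 and at 4.69 without OCM-treated cell 5. The 1 member at least 4-fold lower was Gabrb1, at -4.59, beside 10.1% of symbols at least 4-fold lower. It was at -3.03 without purified cell 2. Gabra2 was at -0.94 and Gabra5 at -0.30, and these signs turned without purified cell 3 (0.38) and purified cell 2 (1.92). Gabra5 did not pass the filter, with 2 cells above 0 in all. The median of the 7 was 2.97 and that of all symbols was 1.40. It became 1.99 without purified cell 1, 4 or 5, and -0.30 with Gabrb2 from its long interval. With the long interval 3 members were at least 4-fold higher, beside 39.3% of symbols. The groups did not overlap for Gphn, among 0.817% of symbols with every OCM-treated cell higher.

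Against glia-cultured GABAergic cells, OCM-treated cells had 5 of the 7 members at least 4-fold lower, beside 30.4% of 6772 symbols. The medians were -2.99 for the members and -0.72 for all symbols. Gabra5, at -6.41, and Gabra2, at -5.56, were lowest, and 1.15% and 2.89% of symbols lay below them. Gabrb1 was at -4.13, Gphn at -2.99 and Gabbr1 at -2.26, the last of which became -0.54 without OCM-treated cell 5 and -1.93 without glia-cultured cell 2. Gabbr2 was at -1.10, and at 0.092 without OCM-treated cell 3. Gabrb2 was higher in OCM-treated cells by 3.09 in the short interval, as the 1 member at least 4-fold higher beside 11% of symbols. It was at 1.85 without glia-cultured cell 4 or 6 and at -1.63 in the long interval. The groups overlapped for all 7 members, whereas 0.517% of symbols had every OCM-treated cell lower and 0.177% every one higher. This comparison shares its glia-cultured cells with the first 2 and its OCM-treated cells with the third.

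**Figure D4:**
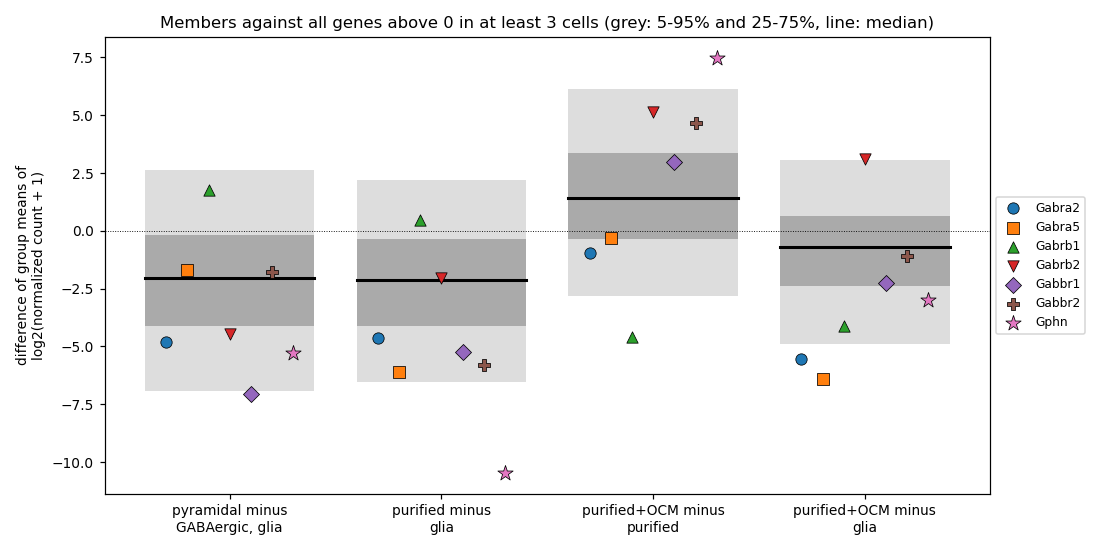
Differences of group means of log2(normalized count + 1) for the 7 members (symbols) in the 4 comparisons, over the spread of all genes above 0 in at least 3 cells. Light and dark grey span 5 to 95% and 25 to 75% of genes, and the line is their median. Gphn lies outside the light band in the 2 comparisons that involve purified cells. Other members lie outside it too, among them Gabbr1 in pyramidal against GABAergic cells. Gabra5 and Gabra2 do so in OCM-treated against glia-cultured cells.

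The members were also set beside the number of genes found in each cell. The cells with no more than 1 member were pyramidal cell 3 (2191 symbols after thinning) and purified cells 1 (3110) and 4 (2219). Glia-cultured cell 5, with all 7 members, had the most symbols (7271). Cells with similar numbers of symbols held different numbers of members: OCM-treated cell 3 (3313) had 5, or 4 after thinning, purified cell 2 (3369) had 4, purified cell 1 (3110) had 1 and glia-cultured cell 2 (3222) had 6. The part of gene detection in the members' counts was not tested.

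**Figure D5:**
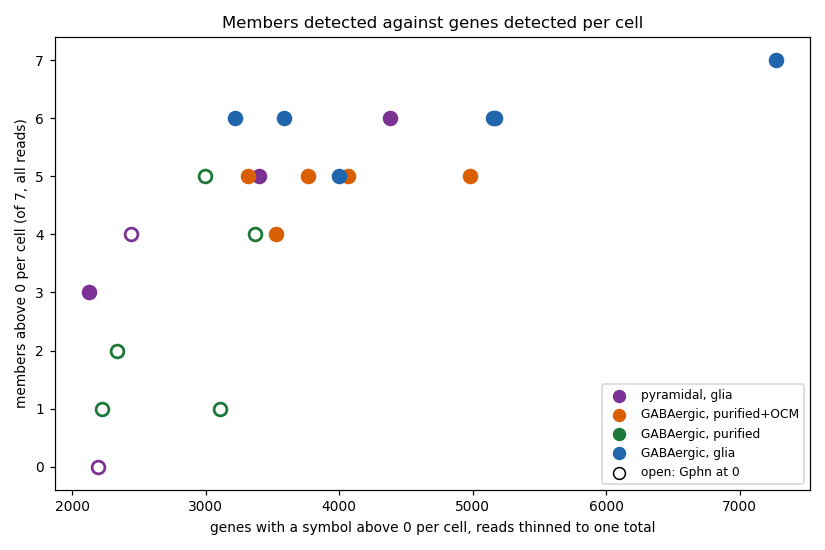
Number of members above 0 per cell (of 7) against the number of genes with a symbol above 0 after thinning to one read total. Points are cells, coloured by group, and open points have Gphn at 0. Purified cells, all open, sit at 2219 to 3369 genes and 1 to 5 members.

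Among further GABA-A subunit genes, Gabra6, Gabrp, Gabrq and the 3 rho subunit genes were at 0 in all 21 cells. Gabrd, which takes part in tonic inhibition outside synapses, was above 0 in 0 of 5 pyramidal, 2 of 5 OCM-treated, 1 of 5 purified and 4 of 6 glia-cultured GABAergic cells, with means of 0, 379, 230 and 790. Reads of Gabrg1 came from 2 of 5 OCM-treated cells (mean 174) and 3 of 6 GABAergic cells with glia (mean 1737), and from no purified or pyramidal cell. Gabra4 was above 0 in pyramidal cell 2, at 2683, and in glia-cultured GABAergic cell 5, at 142. Gabra3 was above 0 in glia-cultured GABAergic cells 1 and 5, at 918 and 64.0, and in no cell of the other groups.

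Of 12 listed gephyrin partners and inhibitory postsynaptic genes, 10 were matched, 2 of them through an older symbol. Glrb, the glycine receptor subunit that binds gephyrin, was above 0 in 0 of 5 pyramidal, 3 of 5 OCM-treated, 2 of 5 purified and 6 of 6 glia-cultured GABAergic cells, with means of 0, 549, 784 and 3152. Slitrk3, an adhesion protein of inhibitory synapses, was above 0 in 5 of 5 OCM-treated, 2 of 5 purified and 3 of 6 glia-cultured GABAergic cells. Its means were 609 (SD 395), 404 (SD 895) and 94.3 (SD 159). Iqsec3, an exchange factor that binds gephyrin, was above 0 in 5 of 5, 2 of 5 and 6 of 6 cells of these groups. In OCM-treated against purified cells, 7 of the list passed the filter and 6 were at least 4-fold higher, with a median of 3.06, beside 39.3% and 1.40 for all symbols. In purified against glia-cultured cells 8 passed and 6 were at least 4-fold lower, with a median of -4.91, beside 51.7% and -2.13 for all symbols.

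Of 11 genes for receptor trafficking, all of which passed the filter in the comparisons with glia-cultured cells, 5 were at least 4-fold lower in pyramidal than in glia-cultured GABAergic cells (median -1.62), 6 in purified cells (-2.82) and 3 in OCM-treated cells (-1.15). These counts are near the shares of all symbols, 50.6%, 51.7% and 30.4%. Gabarap, named for its binding to the receptor, was above 0 in every GABAergic cell, with means of 2338 in OCM-treated, 2537 in purified and 1462 in glia-cultured cells. Nsf, an ATPase of membrane fusion, was above 0 in 5 of 5, 2 of 5 and 6 of 6 cells of these groups. In OCM-treated against purified cells 3 of the 8 trafficking genes that passed were at least 4-fold higher, with a median of 0.13, beside 39.3% of all symbols.

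GABA-B partners and effectors were sparse. Kcnj3, a subunit of the potassium channels that GABA-B receptors open, was above 0 in 0 of 5 pyramidal, 0 of 5 OCM-treated, 1 of 5 purified (at 8.14) and 5 of 6 glia-cultured GABAergic cells. Kctd12, an auxiliary subunit of the receptor, was above 0 in 2 of 5, 2 of 5, 3 of 5 and 3 of 6 cells in the same order. Of 6 genes of this kind, 3 of 4 that passed were at least 4-fold lower in pyramidal cells, 2 of 4 in purified cells and 2 of 4 in OCM-treated cells, each against glia-cultured GABAergic cells, beside 50.6%, 51.7% and 30.4% of all symbols. In OCM-treated against purified cells 1 passed, Kctd12, at -2.06. Slc12a5, the chloride exporter that sets the direction of GABA-A currents, was above 0 in 2 of 5 pyramidal, 3 of 5 OCM-treated, 3 of 5 purified and 6 of 6 glia-cultured GABAergic cells, with means of 177, 51.0, 574 and 844. Slc12a2, the chloride importer, was above 0 in OCM-treated cell 2 (at 107) and in no other cell. Of the molybdenum cofactor genes, Mocs3 was above 0 in 0 of 5 pyramidal, 1 of 5 OCM-treated, 0 of 5 purified and 4 of 6 glia-cultured GABAergic cells, and Mocs2 in 1 of 5, 2 of 5, 2 of 5 and 3 of 6.

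The genes most like each member over the 21 cells were named by Spearman's rho among 4395 symbols above 0 in at least 8 cells. For Gphn these were Madd (0.89), Prr7 (0.89) and Nsf (0.86). For Gabrb2, read from its short interval only, they were Mrps7 (0.83), Akap11 (0.75) and Dcun1d4 (0.73). For Gabra5 they were Rap1b (0.80), Pcsk1 (0.77) and Dvl3 (0.75). For Gabbr1 they were Eif2b1 (0.80), Stk39 (0.79) and Asnsd1 (0.78), and for Gabbr2 Rab3gap1 (0.75), Dyrk2 (0.75) and Rtf1 (0.75). For Gabrb1 they were Flot2 (0.78), Adap1 (0.69) and Dlgap4 (0.68), and for Gabra2 Trappc3 (0.76), Dpcd (0.76) and Wdr6 (0.76). The cells share groups and differ in the number of genes found, with which the members' own rho was 0.05 for Gabrb1 to 0.48 for Gabbr1. They were picked as the highest of 4395 values, so they carry no test.

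Several of the GABA-A genes lie next to each other. On chromosome 14 of rn6, Gabrb1, Gabra4, Gabra2 and Gabrg1 follow one another between 38643398 and 40049354, and they were above 0 in 9, 2, 16 and 5 of 21 cells. On chromosome 1, Gabrg3 and Gabra5 lie between 112158519 and 112946760, with 3 and 10 cells. On chromosome 10, Gabra6 and Gabrb2 lie between 27847448 and 28193072, with 0 and 13 cells. Neighbours were thus found in different numbers of cells. Gabrb1 and Gabra2, from the same cluster, were found together in 7 cells, Gabra2 without Gabrb1 in 9 and Gabrb1 without Gabra2 in 2.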

How the data were processed

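Each neuron was recorded, drawn into the electrode, amplified with SMART-Seq v4 and sequenced from Nextera XT libraries, per the labels' protocols. The submitters' processing notes name STAR 2.4.0, SAMtools, Picard, FastQC and DESeq2, with the build rn6. Neither read counter, annotation nor strand setting is given in the sources used here, so reads of antisense transcripts cannot be told apart.

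The authors deposited 1 normalized signal value per gene and cell, which their table's title calls DESeq2-normalized. The table has 34976 rows, 18376 of them without a symbol, and 0 value columns lacked a sample. Values were whole multiples of 1 step per cell in 100% of cases within 0.05, which gave back reads. A count test was not run, since cells would serve as replicates.

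Some genes of the listed pathways are not reported here. Members and lists were chosen with earlier results of these data known. Named genes are the 7 members, listed genes of the same pathway and the 3 genes most like each member. Group means of log2(value + 1) were compared over cells, with symbols above 0 in at least 3 cells as background. Shares have exact Clopper-Pearson 95% intervals. Floors are 3 reads over a group, at the largest value of 1 read among its cells. Levels were not compared between genes, because transcript lengths are not used here. The calculation of differences was run on simulated Poisson counts with known changes. That simulation held no variation between cells beyond counting, so it checks the arithmetic only. Tried as alternatives were a pseudocount of 10 or 0.1, other scalings (equal totals, equal upper quartiles), the median over cells, the ratio of means, thinning, detection at 10 or 50, summed rows, no filter, cells of 1 title letter, each cell left out, and the other Gabrb2 row, added after seeing the data. Promoters are from RefSeq (GRCr8), a different assembly from rn6, and give sequence only. Scripts ran in Python 3.11.15 with pandas 2.3.3, numpy 2.4.6, scipy 1.17.1 and, for plots, matplotlib 3.10.9.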

Additional observations from a re-analysis of the deposited data

Results flagged for a closer look

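Of 26 sets of 1 member in 1 group with any reads, 8 held a cell whose gap to the next one was wide against the range of log2 values. The rate at which chance flags such sets, about 1 in 20, does not hold where values pile up at 0, so the number of sets is a description. In 4 of them a single cell had the transcript and the others were at 0: Gabra5 at 784 in OCM-treated cell 2 and at 2216 in purified cell 2, Gabrb2 at 413 in pyramidal cell 2, and Gabbr2 at 680 in purified cell 3. In 2 of them a single cell was at 0, Gabra5 in glia-cultured GABAergic cell 1 and Gabbr1 in OCM-treated cell 5. In the last 2 a glia-cultured GABAergic cell was low but above 0. These were Gabbr2 at 7.46 in cell 3, where the next was 197, and Gphn at 53.3 in cell 1, where the next was 1015.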

How the results depend on the processing

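No paired analysis was possible because the labels give no replicate numbers that groups share. With any 1 cell left out, the members' median against glia-cultured GABAergic cells stayed between -4.89 and -3.37 in pyramidal cells, -5.94 and -4.25 in purified cells and -3.95 and -2.49 in OCM-treated cells. In the same order 4 to 6, 5 to 6 and 4 to 6 members were at least 4-fold lower. The shares of all symbols were 47.7 to 57.9%, 46.5 to 55.3% and 25.8 to 33.9%. Between OCM-treated and purified cells the members' median stayed between 1.99 and 4.41. There 3 to 4 members were at least 4-fold higher, beside 38.6 to 44.4% of symbols. Among members at least 4-fold apart, those brought under 4-fold or moved by about 1.5 times or more with 1 cell left out were Gabrb2 in purified against glia-cultured cells (-3.34 without purified cell 1, -0.99 without purified cell 2 or 4, -1.47, -1.27, -1.39 and -1.51 without glia-cultured cells 1, 2, 3 and 5, and -3.27 without cell 4 or 6), Gabbr1 in OCM-treated against purified cells (4.69 without OCM-treated cell 5, 1.99 without purified cell 1, 4 or 5 and 4.46 without cell 2), Gabrb1 there (-3.03 without purified cell 2), and, in OCM-treated against glia-cultured cells, Gabbr1 (-0.54 without OCM-treated cell 5, -1.93 without glia-cultured cell 2) and Gabrb2 (1.85 without glia-cultured cell 4 or 6). Members under 4-fold moved further: against glia-cultured cells Gabrb1 spanned 0.21 to 3.23, Gabra5 -3.40 to -0.053 and Gabbr2 -2.87 to -0.31 in pyramidal cells, Gabrb1 -1.10 to 1.61 in purified cells, and Gabbr2 -2.02 to 0.092 in OCM-treated cells, while Gabra2 spanned -2.44 to 0.38 and Gabra5 -2.22 to 1.92 between OCM-treated and purified cells. Of 126 other settings of the medians and counts, 108 stayed within the spread between cells or, for counts, within 1.5 times. The cause of the changes below was not tested.

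With the ratio of group means, the median was 0.21 for pyramidal against glia-cultured GABAergic cells (Gphn itself 0.21), -1.39 where purified cells were set against glia-cultured ones (1 member at least 4-fold lower) and 0.081 where OCM-treated were set against purified cells (2 members at least 4-fold higher). By that measure 3 members were at least 4-fold lower in OCM-treated than in glia-cultured cells. With cells titled S alone the medians were -2.0 for pyramidal and -4.52 for OCM-treated cells, each against the 1 glia-cultured cell of that letter, and Gabrb2 was at 4.35 for pyramidal and 3.38 for purified cells. With cells titled P it was at 1.30 for purified cells. For purified against glia-cultured cells the median was -3.30 with a pseudocount of 10, -7.22 with 0.1, -3.42 when scaled to one total and -8.29 with the median over cells. The last setting gave 5.82 for OCM-treated against purified cells. With Gabrb2 from its long interval the median was -1.78 in pyramidal cells and -0.30 where OCM-treated were set against purified cells, and Gabrb2 was at -1.58 against purified and -1.63 against glia-cultured cells. At a threshold of 10 or of 50 normalized counts 1 pyramidal cell had both GABA-B subunits, and at 50 an alpha and a beta member were together in 3 of 5 OCM-treated cells. No OCM-treated cell was titled P, so that setting has no value there. Depth limits the smallest values: 1 read was worth up to 5.90 normalized counts.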
